A study of Homo sapiens with 2 samples.

Results

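Potassium channel genes were examined in A375 cells with and without knockdown of THOC2. They were chosen by gene symbol, as every probe whose symbol was KCN followed by letters and a number, and antisense and intronic transcripts named after them were left out. This gave 94 genes with 127 probes, of 34757 genes with 48907 probes that carry a symbol on the array. The gene family was singled out because of the log2 fold change of KCNK3 on these same arrays, so that the value of KCNK3 is given as a description.

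The A375 line was derived from a malignant melanoma of human skin. One culture was transfected with a control siRNA (NC) and one with an siRNA against THOC2 (si-THOC2), a subunit of the THO complex, which couples transcription to the export of mRNA from the nucleus. RNA was taken at 48 h and hybridized to 1 one-colour Agilent array per condition. With 1 array per condition the difference between cultures is unknown, no test could be made, and every difference below is between these 2 arrays. In both samples, the source field names the opposite condition to the title and description. All directions given here rest on the titles and descriptions. The methods list several siRNAs against THOC2, and the one used for the arrays is not stated. One THOC2 probe went from a signal of 136 in NC cells to 40.9 in si-THOC2 cells, for a log2 fold change of -1.42. The signal of the other was 67.3 and 35.1, a log2 fold change of -0.63, so both were lower on the array labelled si-THOC2.

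Potassium channels let potassium ions pass through the cell membrane and in most cells draw the membrane voltage towards negative values. Two-pore channels (KCNK) leak potassium at rest, and inward rectifiers (KCNJ) pass potassium best near or below the resting voltage. Voltage-gated channels open when the membrane depolarizes. Another group opens on a rise in internal calcium or sodium, and auxiliary subunits change the opening or the trafficking of the pore-forming subunits. In tumour cells, potassium channels have been studied for their links to cell volume, division and migration.

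The findings turn on a few probes, and the first 30 of the 60 bases of each are shown to identify them, in lower case and in the 5′ to 3′ direction. The KCNK3 probe had the largest difference of the KCN probes detected on both arrays, and KCNK15, a relative of KCNK3, has one probe detected on both arrays and one detected with NC only. Positions are those of the array annotation (hg19). The KCNK3 probe lies at chr2:26951660-26951719 on the plus strand (2p23.3). The KCNK15 probes lie at chr20:43379593-43379652 and chr20:43380464-43380523 on the plus strand (20q13.12), and are called probe 1 and probe 2 here. Exons and UTRs were not analysed here.
KCNK3: aaatgtgaaacttggtggggtcagggagga
KCNK15 probe 1: acgagcagtttctcattactgtctgtggct
KCNK15 probe 2: actttaatttcaacatgagctacatggtca

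Most potassium channel genes gave no signal well above background in A375 cells. The scanner software sets this mark for each spot. A gene was counted where at least 1 of its probes had it. On the NC array, 27 of 94 genes (28.7%) were detected, beside 49.1% of all genes with a symbol. On the si-THOC2 array, 25 of 94 (26.6%) were detected, beside 46.4%. On at least 1 array, 28 of 94 genes (29.8%) were detected, beside 17514 of 34757 genes with a symbol. Both arrays detected 24 of the KCN genes and 66 were detected on neither. The limit of detection, taken as the lowest signal that still carried the mark, was 14.7 for NC and 15.9 for si-THOC2. The 92 undetected probes had a median signal of 3.12 and 3.31. Such a signal does not show that the RNA was absent. With looser marks of detection the NC count became 46 and 47 genes, as given in the closing section, and the share of all genes was then also higher, at 67.9% and 66.7%.

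Detection was counted by class of channel, with no test between classes. On at least 1 array, 6 of 14 two-pore genes (42.9%), 3 of 16 inward rectifier genes (18.8%) and 11 of 40 voltage-gated genes (27.5%) were detected. So were 4 of 8 calcium- or sodium-activated genes (50%) and 4 of 16 auxiliary genes (25%). These stand beside 17514 of 34757 genes with a symbol. The undetected two-pore genes were KCNK2, KCNK7, KCNK9, KCNK10, KCNK13, KCNK16, KCNK17 and KCNK18. The undetected inward rectifiers were KCNJ1 to KCNJ6, KCNJ8 to KCNJ11, KCNJ13, KCNJ15 and KCNJ16. Among the voltage-gated genes, the undetected ones included every member of the KCNA, KCNB and KCNV groups, and also KCNC1, KCNC2, KCND1, KCND2, KCNG2 to KCNG4, KCNH1, KCNH4 to KCNH8, KCNQ1, KCNS1 and KCNS2. In the calcium- or sodium-activated class, KCNN1, KCNN2, KCNT2 and KCNU1 were undetected, with KCNU1 counted there as a relative of these channels. The undetected auxiliary genes were KCNAB1 to KCNAB3, KCNE1 to KCNE4, KCNIP1, KCNIP2, KCNIP4, KCNMB2 and KCNMB3.

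**Figure D1:**
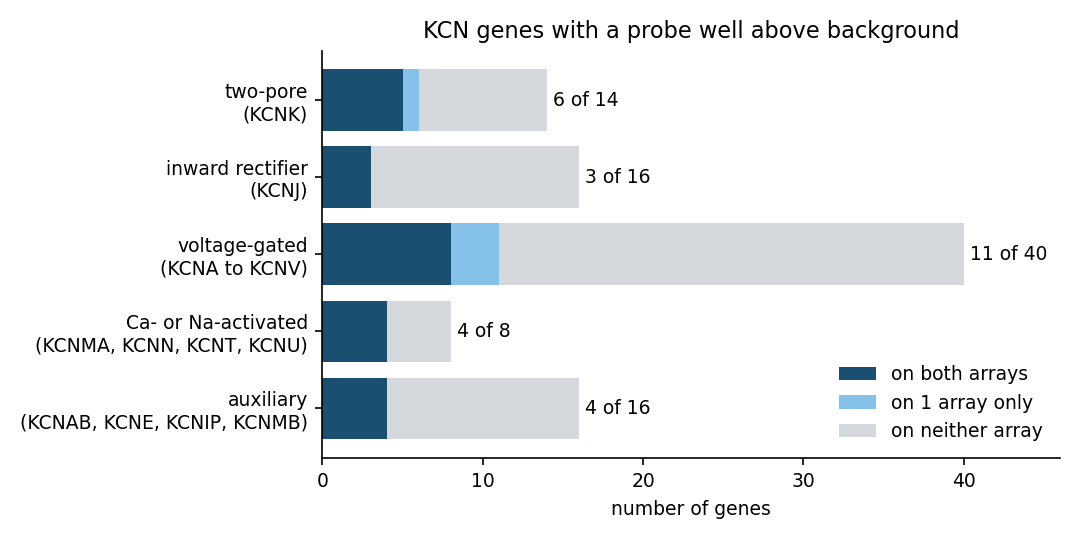
Number of KCN genes in each class with a probe well above background on both arrays (dark), on 1 array only (light blue) or on neither (grey). The label of each bar gives the genes detected on at least 1 array, from 3 of 16 inward rectifiers to 4 of 8 calcium- or sodium-activated channels.

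The difference between si-THOC2 and NC was small for most detected members. The comparison covered 35 probes of 28 genes, each with the mark on 1 or both arrays. For each, the log2 of the processed signal was reduced by the 75th percentile of its array, which was 6.62 for NC and 6.31 for si-THOC2. A signal that was lower by that gap therefore has a log2 fold change of 0. By this measure 28 of the 35 probes lay within 0.5 of 0. The share of all compared probes within 0.5 was not counted, so nothing particular to the KCN genes is read from this. A probe counted as higher or lower at 2-fold or more. This held for 2 of 35 probes in the upward direction, beside 2.93% of the 25345 probes compared on the whole array, and for 0 of 35 in the downward direction, beside 3.33%. The upward count includes KCNK3, on whose difference the family was selected, and nothing is read from it.

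Over the 28 genes, the log2 fold change had a median of 0.01, with 15 above 0 and 13 below, beside 0.02 over 17514 genes. It was 0.01 for the 27 genes without KCNK3. Of the 28 KCN probes detected on both arrays, 26 lay within 0.5 of 0, again with no share of all probes counted, the exceptions being KCNK3 and KCNC4. KCNK3 alone was higher by 2-fold, beside 0.829% of the 22207 probes of this kind, and none was lower by 2-fold, beside 0.365%. The SD of the log2 fold change over these 22207 probes was 0.32.

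Repeated spots of 300 probes gave the error within the arrays. The median SD of their log2 fold change was 0.42 where the mean log2 signal was under 4 (15 probes), 0.17 between 4 and 6 (5 probes), 0.10 between 6 and 8 (36 probes) and 0.05 over 8 (244 probes). These SDs cover the spots of one hybridization and leave out the spread between cultures.

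**Figure D2:**
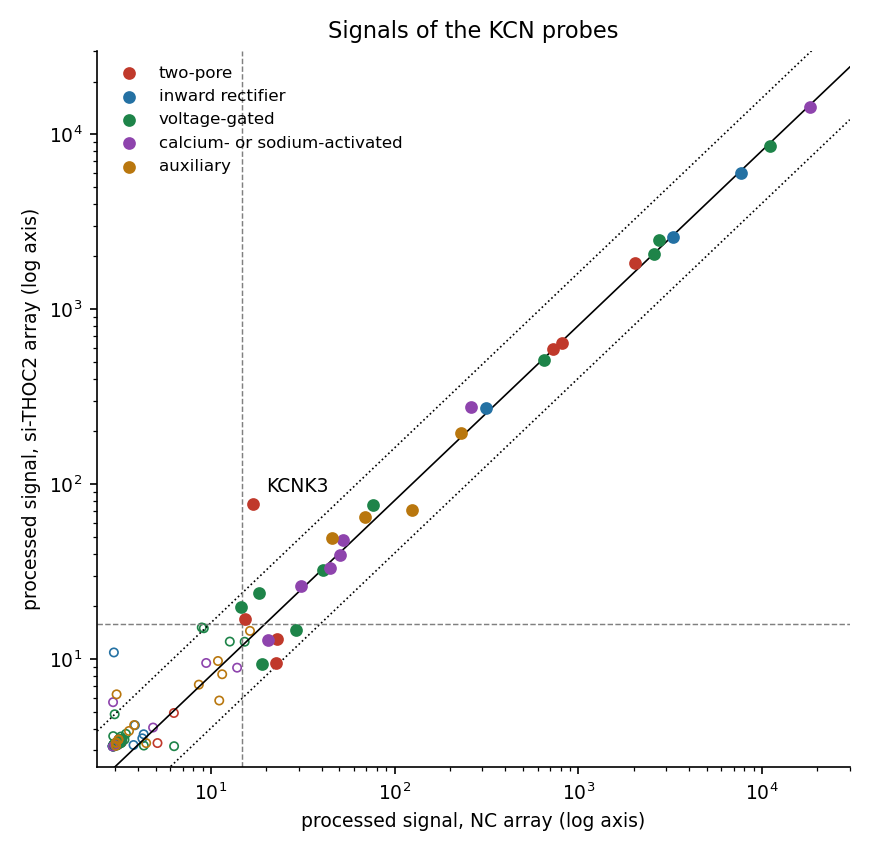
Processed signal of the KCN probes of the genes reported on the NC array (x axis) and the si-THOC2 array (y axis), both on log axes. Filled points were compared, open points were well above background on neither array, the solid line marks equal scaled signal, the dotted lines mark 2-fold and the dashed lines mark the lowest signal well above background (14.7 and 15.9). Of the filled points shown, only KCNK3 lies above the upper dotted line.

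KCNK3, also known as TASK-1, is an acid-sensitive leak channel and had the largest difference of the detected two-pore genes. It had a signal of 17.0 with NC and of 76.8 with si-THOC2. The log2 fold change was 2.49, or 5.60-fold. The probe had 1 spot on each array, and the NC signal lay just above the lowest signal well above background (14.7). It ranked 4 of 22207 probes detected on both arrays and 325 of 25345 among all compared, where probes dim on one array are also ranked. Of 3609 probes on both arrays with a mean log2 signal within 0.5 of its own, 4 had a value at least as high, itself included, and 2.38% were higher by 2-fold. The value is a description, since KCNK3 was chosen for it.

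Background correction and place on the slide were examined for KCNK3. With the normexp background correction, which adds an offset of 50 and pulls dim signals towards each other, its log2 fold change was 1.01. In its block of spots on the slide, 7 of 226 compared probes (3.10%) were higher by 2-fold and 8 were lower. Within 3 rows and columns of its spot, 4 of 29 compared probes were higher by 2-fold and 1 was lower, with a median of -0.03. The share higher was above the 2.93% over all compared probes. The part of the place on the slide in the value of KCNK3 was not tested.

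The other detected two-pore genes lay much closer to 0. KCNK1, or TWIK-1, a weakly conducting leak channel, had signals of 727 and 590 (NC, then si-THOC2), a log2 fold change of 0.01. Its second probe was not well above background on either array. KCNK5, or TASK-2, a leak channel opened by alkaline pH, had 810 and 640, a log2 fold change of -0.03. Both genes were bright on each array and equal after scaling, within the SD of repeated spots (0.05).

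KCNK12, or THIK-2, had signals of 15.2 and 16.8, a log2 fold change of 0.46. Both signals were close to the lowest signal well above background. The value lay 2.03 under that of KCNK3 and was the next largest among two-pore genes. KCNK6, or TWIK-2, was detected on the NC array only, with 22.8 and 13.0. By its bound it was at least 1.16-fold lower with si-THOC2, where the dim side is set to the lowest signal well above background on its array. KCNK6 was compared only because of its NC signal, so this direction follows largely from the filter. The bound is -0.21 on the log2 scale, beside a median SD of repeated spots of 0.17 at that signal. With normexp its value was -0.02, so the bound holds only for the scaling used here.

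The KCNK15 gene codes for TASK-5, a relative of KCNK3 that is not known to carry current by itself. Its probe 1 was printed in 10 spots and had signals of 2034 and 1847, a log2 fold change of 0.17 (SD 0.11 over 10 spots, from -0.02 to 0.38). Probe 2 had 22.5 and 9.53 and was not well above background on the si-THOC2 array. It was at least 1.14-fold lower. Probe 2 was compared only because of its NC signal, and its bound is smaller than the median SD of repeated spots at that signal (0.42 on the log2 scale). The median of the 5 two-pore genes without KCNK3 was -0.03 with the NC-only probes of KCNK6 and KCNK15 included. With probes detected on both arrays only, KCNK6 and probe 2 of KCNK15 drop out. The value of KCNK15 then went from -0.38 to 0.17, and the median of the remaining genes was 0.090. The sign of the median therefore rested on these dim probes.

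**Figure D3:**
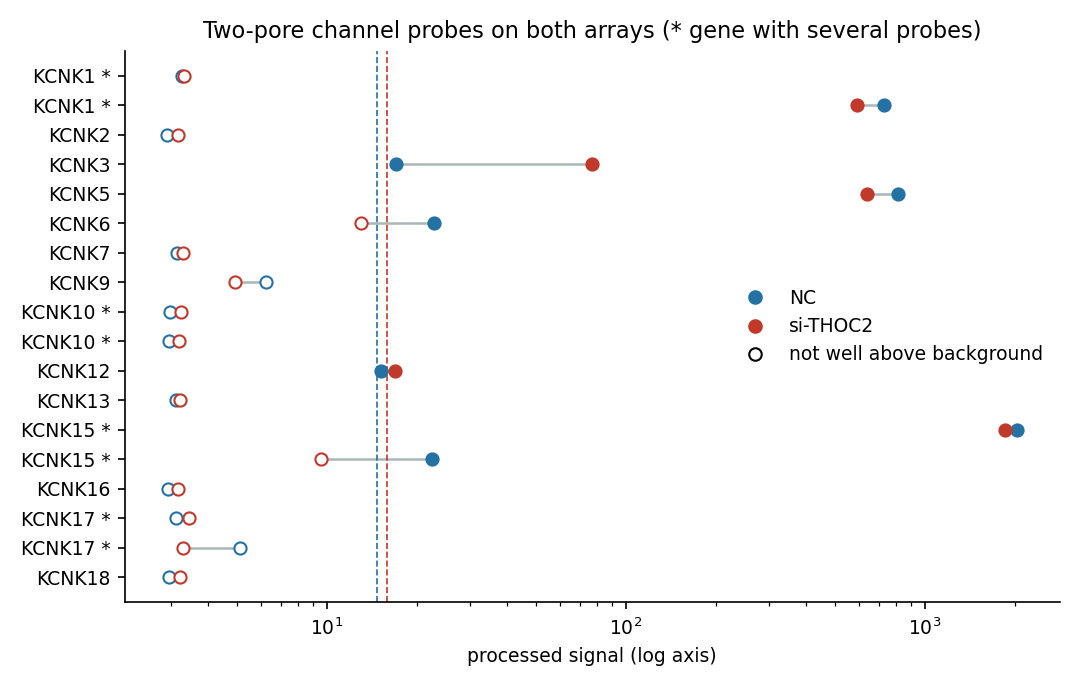
Processed signal (log axis) of each two-pore channel probe on the NC array (blue) and the si-THOC2 array (red). Open symbols are not well above background and dashed lines mark the lowest signal that is (14.7 and 15.9). KCNK3 moves from 17.0 to 76.8, while the bright probes of KCNK1, KCNK5 and KCNK15 lie slightly lower on the si-THOC2 array, which was dimmer as a whole.

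Among the inward rectifiers, 3 genes were detected, all on both arrays and all close to 0. KCNJ12 and KCNJ18 code for near-identical channels (Kir2.2 and Kir2.6) of the strongly rectifying type. KCNJ12 had signals of 3277 and 2579, a log2 fold change of -0.04, and KCNJ18 had 7716 and 6037, also -0.04. Both probes are placed near each other on hg19, at chr17:21323091-21323150 and chr17:21320339-21320398, so the 2 genes cannot be told apart with certainty. KCNJ14, or Kir2.4, had 315 and 271, a log2 fold change of 0.09. The median of the class was -0.04.

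The voltage-gated class held 11 detected genes with a median log2 fold change of 0.16, 6 above 0 and 5 below. KCNC4, or Kv3.4, a rapidly inactivating channel, had signals of 18.2 and 23.7, a log2 fold change of 0.69, both near the limit of detection.

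The pore subunits KCND3 and KCNH3 lay near 0, and KCNH2 was dim. KCND3, or Kv4.3, which carries a rapidly inactivating current, had signals of 76.6 and 75.5, a log2 fold change of 0.29. KCNH3, of the ether-a-go-go family, had 2756 and 2480, a log2 fold change of 0.16. KCNH2, known as hERG, which repolarizes the heart, had 19.0 on the NC array and 9.31 on the si-THOC2 array, where it was not well above background. No fold is given for KCNH2, because its limit on the si-THOC2 array was above its scaled NC signal. KCND3 and KCNH2 each had another probe, which was not well above background on either array.

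The 3 modulatory subunits, which form no channel alone but change the channels of the KCNB group, were bright or moderate and almost equal between arrays. KCNG1, or Kv6.1, had a pair of probes with 11012 and 8603 (log2 fold change -0.05) and 651 and 513 (-0.03). KCNS3, or Kv9.3, had 2571 and 2065, a log2 fold change of -0.01. KCNF1, or Kv5.1, had 40.8 and 32.3, a log2 fold change of -0.03. No KCNB gene was well above background on either array.

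KCNQ5 and KCNQ3, whose channels carry the M current that limits firing in neurons, gave values on both sides of 0. KCNQ5 was well above background on the si-THOC2 array only, with 14.6 and 19.9 for its compared probe, which was at least 1.68-fold higher. The other KCNQ5 probe had 3.11 and 3.23, not well above background on either array. KCNQ3 was detected with NC only, with 29.2 and 14.6, and was at least 1.48-fold lower. The lower signal of each gene lay under the limit of detection of its array. Each was compared only because of its higher signal, so its direction follows largely from that filter. As measured, the log2 fold changes were 0.75 and -0.69, under 2-fold. A bound gives only a minimum, so a change past 2-fold is not excluded. With normexp they were 0.31 and -0.10, smaller than the bounds, which hold only for the scaling used here.

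The calcium- or sodium-activated class had a median log2 fold change of -0.01 over 4 detected genes. KCNN4, or KCa3.1, an intermediate-conductance calcium-activated channel, had signals of 18283 and 14335, a log2 fold change of -0.04. KCNN3, or SK3, of small conductance, had 50.4 and 39.5 with one probe (-0.04) and 30.8 and 26.2 with another (0.08). As scaled here, all 3 probes were at 0 within the SDs of repeated spots. KCNN4 was -0.14 with the authors' normalized values and under quantile normalization, and -0.15 with normexp.

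KCNMA1, the pore of the large-conductance BK channel, was detected with 3 of its 5 probes, which did not move together. One probe had 261 and 277, a log2 fold change of 0.40. Another had 44.7 and 32.9, a log2 fold change of -0.13. The last had 20.3 and 12.8, not well above background on the si-THOC2 array, and was at least 1.03-fold lower. That bound is smaller than the median SD of repeated spots at that signal (0.17 on the log2 scale). KCNT1, or Slack, a sodium-activated channel, had 52.5 and 48.0, a log2 fold change of 0.18. Its other probe was not well above background on either array.

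Of the auxiliary subunits, 4 genes were detected, with a median log2 fold change of 0.15. The BK subunits differed in sign. KCNMB4, a BK beta subunit known mainly from brain, had signals of 124 and 70.6, a log2 fold change of -0.50, which was the lowest value among the KCN probes detected on both arrays. KCNMB1, the beta subunit of smooth muscle, had 68.8 and 64.9, a log2 fold change of 0.23. KCNE5, a small single-span subunit, had 45.4 and 49.1, a log2 fold change of 0.42. KCNIP3, a calcium-binding partner of Kv4 channels also called calsenilin or DREAM, had 229 and 195, a log2 fold change of 0.08.

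**Figure D4:**
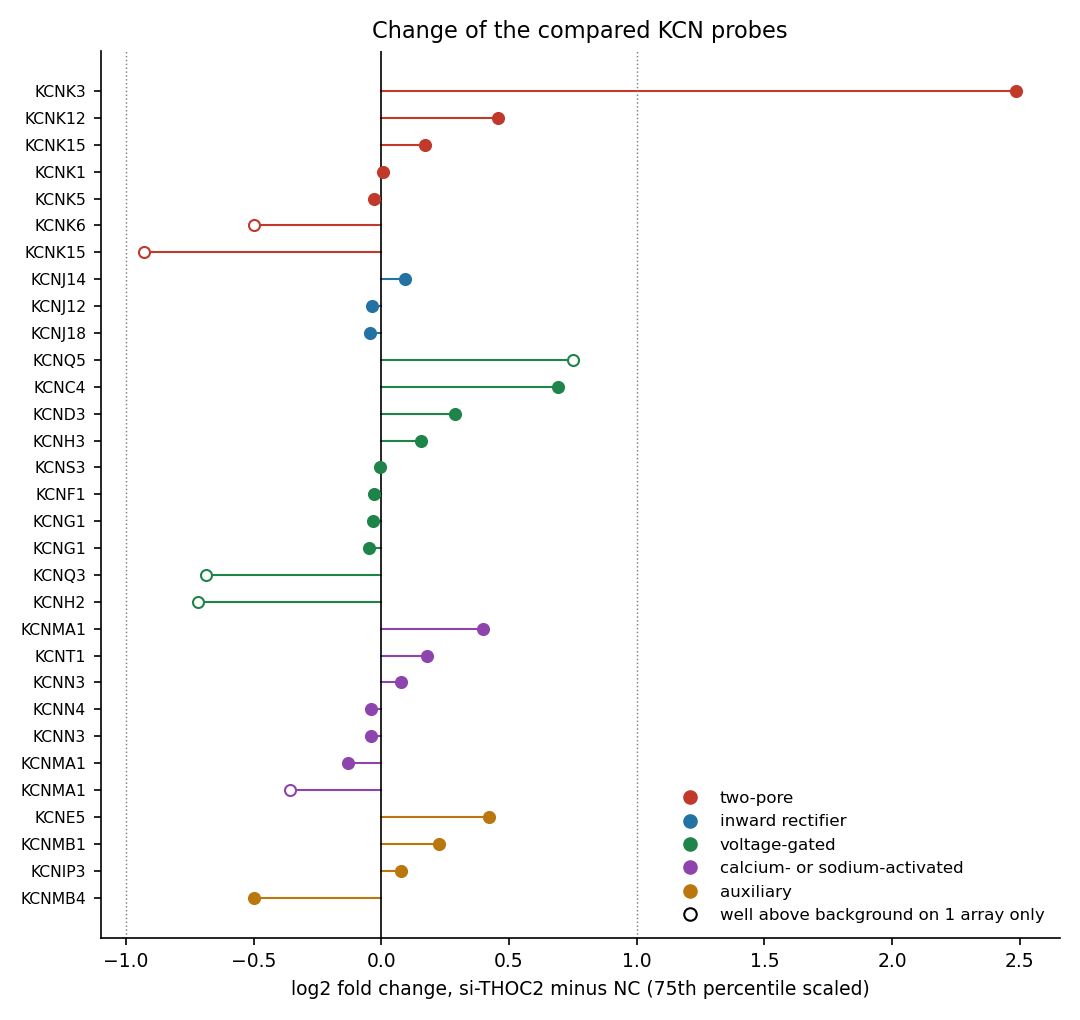
Log2 fold change (si-THOC2 minus NC, scaled to the 75th percentile) of the compared KCN probes of the genes reported, coloured by class. Open symbols were well above background on 1 array only, and dotted lines mark 2-fold. Of the probes shown, KCNK3 (2.49) alone lies past the upper line, and none lies past the lower one.

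The processing altered some of these values. KCNK3 had the highest value of the 28 genes under each alternative tried, but it was chosen for that value, so its rank is a description only. Its value was 2.49 as reported, 2.47 to 2.50 under all but 1 of them and 1.01 with normexp. Since its probe was detected on both arrays, the alternatives that change the detection filter or the dim side could not move it.

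**Figure D5:**
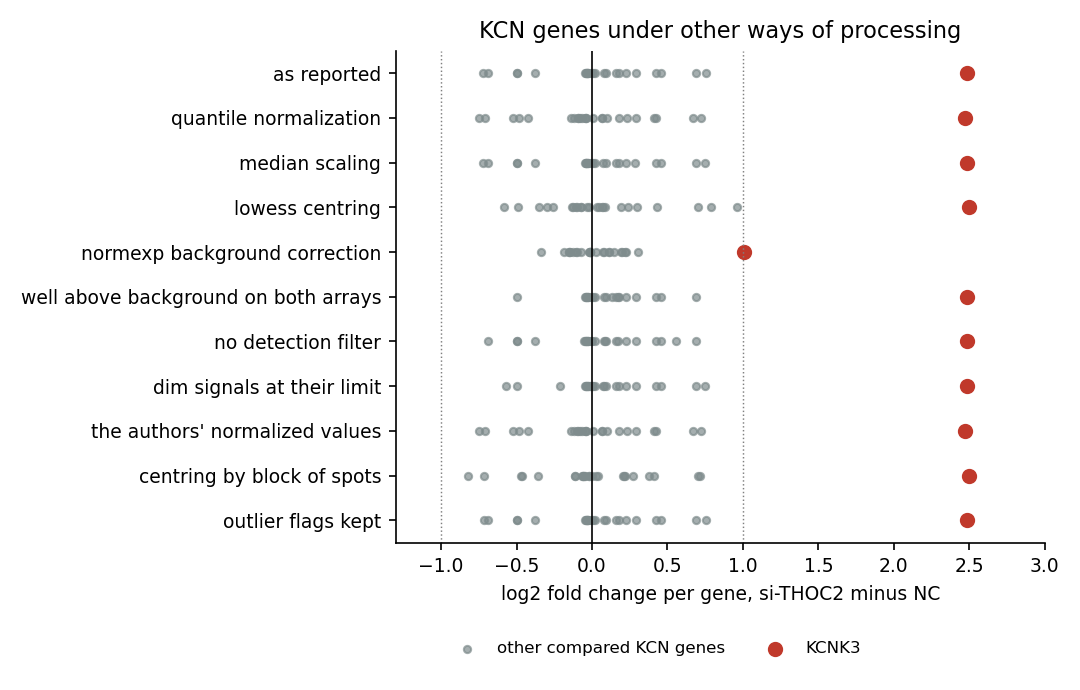
Log2 fold change of the compared KCN genes (mean of the probes of each gene, for the genes reported) as processed here and under the other ways of processing, with KCNK3 in red. Dotted lines mark 2-fold. KCNK3 is 2.49 as reported and 1.01 with normexp background correction, and the other genes shown lie within 1 of 0 throughout.

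Genes for potassium pumps, exchangers, cotransporters and partners of potassium channels were examined beside the family. Of 46 such genes, 25 were compared with 32 probes. The median log2 fold change was 0.07, beside 0.02 over all genes compared, with 15 genes above 0 and 10 below. By 2-fold, 1 of the 32 probes was higher and 1 was lower, beside 2.93% and 3.33% of all compared probes, which is close to the background. SLC24A3, an exchanger of sodium for calcium and potassium, was the 1 gene higher by 2-fold, with signals of 320 and 616 and a log2 fold change of 1.26. The 1 gene lower by 2-fold was ATP1B2, a beta subunit of the sodium-potassium pump. It had signals of 20.5 and 7.89, the latter not well above background, and a log2 fold change of -1.07 as measured. Its bound of at least 1.04-fold lower is smaller than the median SD of repeated spots at that signal (0.42 on the log2 scale).

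The label of a melanoma line was set against marker genes. Of 11 melanocyte and melanoma markers, 7 were detected with NC and 8 with si-THOC2, including SOX10 (6196 and 5196). Of the pigment cell genes, TYR, TYRP1 and PMEL were not well above background on either array, DCT was on both (18.0 and 24.4), and MLANA was with si-THOC2 only (18.7). Of the other cell types, 2 of 4 keratinocyte markers were detected on both arrays, KRT10 (32306 and 20623) and KRT14, while KRT5 and KRT1 were not. Of 4 immune markers, 3 were detected on both arrays, at no more than 27.4 and 37.4, with a summed signal of 92.8 and 108. Of 3 endothelial markers, 3 were detected with NC and 1 with si-THOC2, at no more than 22.1 and 17.6, with a summed signal of 86.7 and 68.5. The part of other cell types in the KCN values was not tested.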

How the data were processed

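Total RNA of 2 A375 cultures was measured on 1 one-colour Agilent array each. The deposited scanner output holds the intensity of each spot (processed signal, after background subtraction by the authors with Agilent Feature Extraction 10.7.1.1), with other deposited marks for control, outlier, saturated and well-above-background spots. The authors also deposited normalized log2 values, used as an alternative, and a comparison table of their fold changes, not used here. Symbols, probe sequences and hg19 positions came from the deposited annotation.

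Control and outlier spots were left out, repeated spots were averaged as log2 values, and each array's 75th percentile was subtracted, for 58199 probes. A probe was compared if marked well above background on 1 or both arrays, and a gene was given the mean over such probes. Median signals of all spots were 9.54 (NC) and 7.92 (si-THOC2), and no spot was saturated. The number of arrays limits the precision. A bound sets the dim array to the higher of its lowest signal well above background and the probe's own. It leaves out the error of a spot. A probe detected on 1 array only was compared because of its brighter side, so its direction follows largely from that filter. Members, classes, marker lists and alternatives were chosen with earlier results of these data known. By rule, every detected member was named, apart from some genes that are not reported here and are left out of the plots by gene but kept in the counts and medians, and of the other potassium genes those past 2-fold. The comparison was tested on simulated data with changes set in brighter probes only, so that test does not cover dim probes such as KCNK3. All 94 symbols were in the reference gene table. Protein sequences and promoters were not analysed here. Calculations used Python 3.11.15, numpy 2.4.6, statsmodels 0.14.6 and pandas 2.3.3. The normexp correction was run in limma 3.58.1 under R 4.3.3.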

Additional observations from a re-analysis of the deposited data

How the results depend on the processing

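No paired analysis was possible because each condition had 1 array. Each alternative describes the same 2 arrays, and the cause of a moved value was not tested unless the alternative's own construction shows it. The count of KCN probes higher by 2-fold, 2 as reported, was 1 with normexp background correction, 1 with probes detected on both arrays and 1 when a dim side was set to its limit. With no detection filter, which adds probes at background, it was 8. It was 2 under quantile normalization, median scaling, lowess centring, the authors' normalized values, centring by block of spots, outlier flags kept, a fold of 3 and genes in place of probes. The count of lower probes was 0 under each of these. The median of KCN genes (0.01) was 0.40 with no detection filter. The median of two-pore genes without KCNK3 (-0.03) was 0.090 with probes on both arrays, which drops KCNK6 and the dim probe of KCNK15, and 0.36 with no filter. KCNK3 (2.49) was 1.01 with normexp and 2.47 to 2.50 otherwise, where the alternatives for detection and dim signals could not move it. Genes detected on the NC array (27) numbered 46 by the software's mark for a positive and significant signal and 47 by signals 3 SDs over the negative controls, and those on the si-THOC2 array (25) numbered 44 and 44. The sign of KCNK15 turned to 0.17 with probes on both arrays, which drops its dim probe. Of 266 values of the other 27 genes under alternatives, 58 moved by more than the SD of repeated spots, 20 of 27 with normexp. With the authors' normalized values 6 of 27 moved, among them the bright genes KCNN4 (-0.14), KCNJ12 (-0.10), KCNJ18 (-0.12) and KCNG1 (-0.09). Dim signals limit KCNK3, KCNK12, KCNC4 and every gene detected on 1 array. With normexp, KCNK6 was -0.02, KCNQ3 was -0.10 and KCNQ5 was 0.31.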

Other observations

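Noncoding transcripts and other genes named after KCN genes lay outside the family as it was defined. They had 17 names and 21 probes, of which 18 were not well above background on either array, among them both probes of KCNQ1OT1, an imprinted antisense RNA at the KCNQ1 locus. KCND3-IT1, placed inside KCND3, had signals of 313 and 295 (NC, then si-THOC2) and a log2 fold change of 0.22, beside 0.29 for KCND3 itself. KCNQ5-IT1 had 42.4 and 33.8, a log2 fold change of -0.02. The compared probe of KCNQ5, detected with si-THOC2 only, was at least 1.68-fold higher by its bound as scaled here. KCNIP4-IT1 had 18.9 on the NC array and 9.08 on the si-THOC2 array, where it was not well above background, and no probe of KCNIP4 was well above background on either array.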
